A study of Mus musculus with 6 samples.

Results

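The 38 genes described here act in homologous recombination, Fanconi anaemia crosslink repair and the signalling that starts from a broken chromosome. They were taken by gene symbol from a table of 53465 mouse genes, and all 38 were found there. Homologous recombination repairs a double-strand break by copying an intact sister chromatid. The MRE11, RAD50 and NBN complex senses the break and activates the kinase ATM, the DNA ends are resected, and BRCA1, PALB2 and BRCA2 prepare the single strand for strand exchange. The Fanconi anaemia pathway recognises DNA strands that are covalently linked to each other, attaches ubiquitin to FANCD2 and FANCI, and hands the unhooked lesion to nucleases and to recombination. Many of these genes are transcribed most in dividing cells, and loss of BRCA1 or BRCA2 sensitises tumours to drugs that break or crosslink DNA.

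RNA sequencing covered 6 primary liver cancer cell lines from C57BL/6 mice. In 3 of them (replicates 2A, 2B and 2D) the genotype is Myc_Utx, in which Utx is another name of Kdm6a, a histone demethylase gene, and the other 3 (replicates 1, 2 and 3) are comparison lines of another genotype. By the study's methods, adult females received through the tail vein a transposon that expresses Myc from the EF1a promoter together with a Cas9 plasmid and a guide RNA, so every line carries added Myc and the groups differ in the gene that the guide targets, Kdm6a in the first group. They are called the sgKdm6a and the comparison lines below. No line without a targeted gene was measured, so a difference may belong to either genotype and these cannot be told apart. The sequencing paragraph of the methods names the first group Myc;sgMll3, and the genotype in the labels was used here. Each line was grown in culture from a tumour. The methods call the lines independent, the labels name no animal, and the p-values measure the spread between these lines.

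Depth was 4656103 to 6937497 counted reads per line, and 11510 genes had enough counts to be tested. Kdm6a messenger RNA (mRNA) overlapped between the groups, with 39.7, 45.7 and 49.0 CPM (the reads of a gene scaled to a common library size) in the sgKdm6a lines against 69.5, 64.5 and 42.5 CPM in the comparison lines (adjusted p = 0.243). The amount of mRNA does not show whether Cas9 edited the gene, so this cannot check the labels. In cell lines grown from sgKdm6a tumours, the study reports insertions or deletions in Kdm6a and loss of its protein. Of 16 hepatocyte markers only 6 had enough counts to be tested. Of these 6, 4 had a log2 fold change (sgKdm6a over comparison lines) below 0 and 2 above 0, from -5.80 to 0.64. Only 1 passed the test. The 16 summed to 60.2, 131 and 148 CPM in the sgKdm6a lines and to 1279, 142 and 865.5 CPM in the comparison lines. The sum in comparison line 2 thus lay within the range of the sgKdm6a lines. Albumin was at 0.891 to 4.87 CPM in every line. Apob, chosen after its values were seen, was at 0 to 1.12 CPM in the sgKdm6a lines and 13.2 to 53.9 CPM in the comparison lines (adjusted p = 0.0240, and 0.0248 to 0.0949 with 1 line left out, where 2 of 6 fits passed). The keratin genes Krt8 and Krt18 had no count in sgKdm6a line 2D, were at 446 to 717 and 315 to 471.5 CPM in comparison lines 1 and 3, and did not pass the test (log2 fold changes -4.55 and -3.79, adjusted p = 0.105 and 0.139). The 15 macrophage markers summed to 37.9 to 56.6 CPM in the sgKdm6a lines and 67.5 to 144 CPM in the comparison lines. Among them, 7 were lower and Cd14 was higher in the sgKdm6a lines, and C1qc and Laptm5 had no count in any sgKdm6a line. The 12 fibroblast and stellate cell markers summed to 42.4 CPM in comparison line 1 and to 726 to 3170 CPM in the other 5 lines. The 8 cholangiocyte markers summed to 168 to 1551 CPM, and the 10 endothelial markers to 2.59 to 4.82 CPM. In such bulk samples fewer cells of a type and less RNA per cell cannot be told apart, and the part of these differences in the repair genes was not tested.

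All 38 genes were expressed in all 6 lines and passed the filter on low counts, with between 18 and 1287 reads per gene and line. The counts in this paragraph are those of the main fit, and no test of the 38 as a set was run. At an adjusted p under 0.05 (edgeR's quasi-likelihood test, Benjamini-Hochberg over all 11510 genes) 1 gene was higher in the sgKdm6a lines, Fancl, and 1 was lower, Mdc1. That is 5.26% of the genes, against 14.7% of all genes tested. By direction, 6.99% of all genes were higher and 7.69% lower. At an unadjusted p under 0.05, 8 of the 38 differed, 4 in each direction, which is 21.1% of them against 35.0% of all genes tested. The 2 groups of lines did not overlap for 12 of the 38, or 31.6%, against 42.0% of all genes. Of these 12 genes, 6 were higher (21.1% of all genes) and 6 were lower (20.9% of all genes). The median log2 fold change (sgKdm6a over comparison lines, so that a value above 0 means a higher level in the sgKdm6a lines) was 0.08, beside -0.01 for all genes tested. It was below 0 for 15 of the 38, or 39.5%, against 50.8% of all genes. It lay within 0.3 of 0 for 22 genes and beyond 1 for 2 of them, Fancl and Slx4. For 28 of the 38 genes the 95% interval of the fold change lay wholly within 1 log2 unit, or a 2-fold change, in either direction. For the other 10 a 2-fold change was not excluded at this depth and number of lines. An exact two-sided permutation test of 3 lines against 3 cannot give a p below 0.1, the value that all 12 genes without overlap had.

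**Figure D1:**
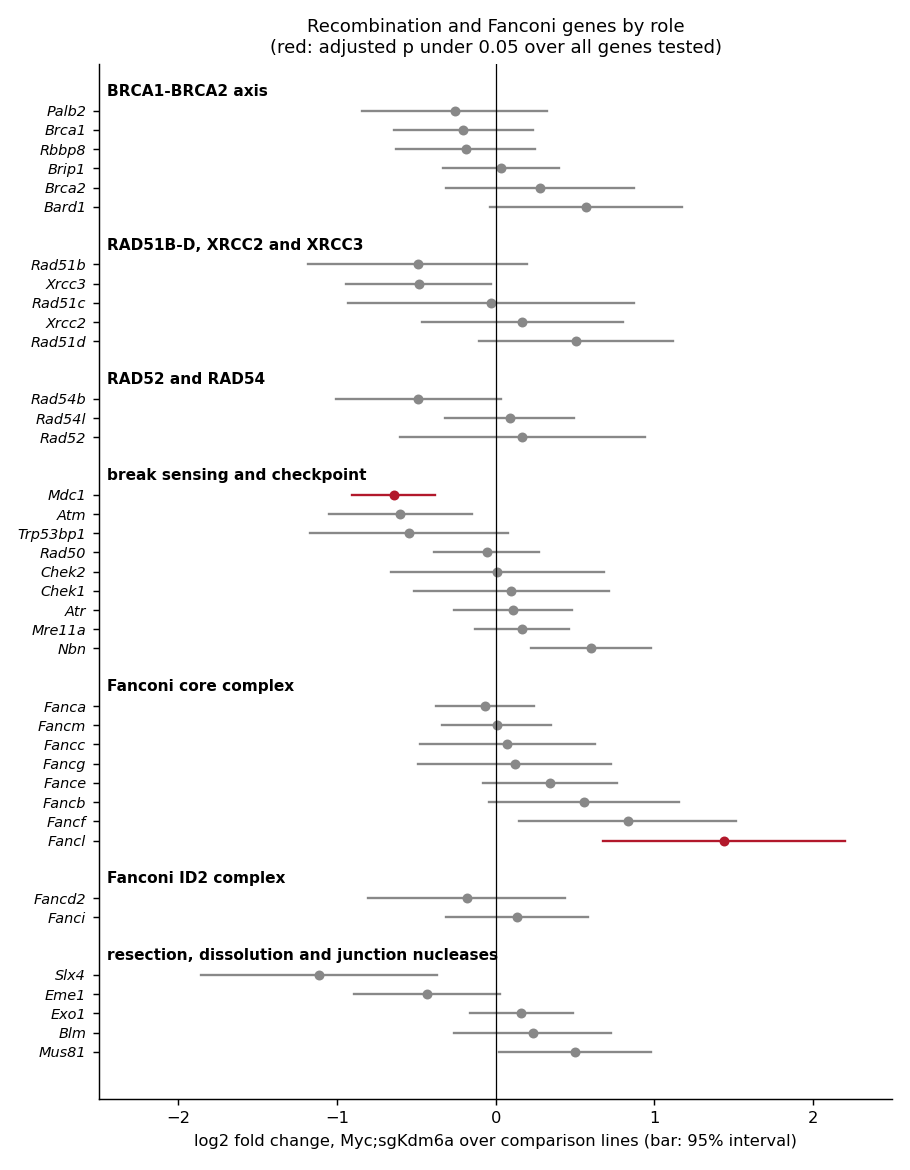
Log2 fold change of each of the 38 genes (points) with its 95% interval (bars), ordered by size within each role; values above 0 are higher in the sgKdm6a lines. Only Fancl, at 1.44, and Mdc1, at -0.64, are drawn in red for an adjusted p under 0.05, and most other intervals cross 0.

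The promoter windows of 6 genes are printed because they hold the letters of a binding site for E2F, a family of transcription factors of the dividing cell, or belong to the 2 genes that passed the test. They are the 250 bases before the RefSeq transcript start (GRCm38.p6), 5′ to 3′ on the strand of the gene. Capitals mark E2F letters (TTTCGCGC, TTTGGCGC or TTTCCCGC), CCAAT boxes and the cell cycle element CHR (TTTGAA or TTCGAA), each searched on both strands.
Mdc1 (chr17:35841248-35841497, plus strand): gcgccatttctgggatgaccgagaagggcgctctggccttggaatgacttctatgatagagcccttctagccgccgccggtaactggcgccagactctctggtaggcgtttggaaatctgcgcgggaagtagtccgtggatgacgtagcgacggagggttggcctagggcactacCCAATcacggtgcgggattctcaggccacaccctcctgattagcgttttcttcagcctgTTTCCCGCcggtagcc
Bard1 (chr1:71102973-71103222, minus strand): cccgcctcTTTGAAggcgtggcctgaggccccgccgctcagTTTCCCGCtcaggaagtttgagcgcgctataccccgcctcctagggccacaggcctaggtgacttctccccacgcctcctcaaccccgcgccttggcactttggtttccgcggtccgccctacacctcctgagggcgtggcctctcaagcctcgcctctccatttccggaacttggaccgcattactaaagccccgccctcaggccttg
Brca2 (chr5:150522371-150522620, plus strand): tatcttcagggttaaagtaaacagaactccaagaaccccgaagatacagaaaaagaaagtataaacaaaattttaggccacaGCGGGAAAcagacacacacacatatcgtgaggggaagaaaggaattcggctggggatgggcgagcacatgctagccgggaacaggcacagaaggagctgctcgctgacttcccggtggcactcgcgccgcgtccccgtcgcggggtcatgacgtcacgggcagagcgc
Chek2 (chr5:110839733-110839982, plus strand): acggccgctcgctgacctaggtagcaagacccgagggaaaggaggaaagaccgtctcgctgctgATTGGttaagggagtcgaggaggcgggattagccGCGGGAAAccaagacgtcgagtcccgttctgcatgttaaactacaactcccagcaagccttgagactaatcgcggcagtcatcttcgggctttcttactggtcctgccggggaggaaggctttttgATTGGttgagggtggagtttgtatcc
Fancg (chr4:43010302-43010551, minus strand): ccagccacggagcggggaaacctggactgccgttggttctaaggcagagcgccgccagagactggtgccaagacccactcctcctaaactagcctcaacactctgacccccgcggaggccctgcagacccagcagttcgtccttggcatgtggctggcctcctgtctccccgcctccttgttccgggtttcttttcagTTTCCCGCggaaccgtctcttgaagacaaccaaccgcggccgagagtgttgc
Fancl (chr11:26386834-26387083, plus strand): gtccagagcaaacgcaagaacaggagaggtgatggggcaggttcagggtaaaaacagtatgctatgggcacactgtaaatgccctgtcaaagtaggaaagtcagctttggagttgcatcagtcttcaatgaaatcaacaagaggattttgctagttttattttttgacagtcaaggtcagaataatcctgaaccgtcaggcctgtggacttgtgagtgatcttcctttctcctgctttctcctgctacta

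Promoter windows could be matched by symbol for 30 of the 38 genes. E2F letters were found in 5 of these 30, or 16.7%, against 1.78% of the 27025 genes in the promoter table. CCAAT was found in 17, or 56.7%, against 37.5%, and the CHR letters in 2, Atr and Bard1, or 6.67%, against 19.6%. None of these letters occurs in the Fancl window, and GENCODE M21 places the start of 1 Fancl transcript at 26386135, before that window. Other windows also lie after an M21 start, among them those of Slx4 and Fancc, both counted for CCAAT. The E2F letters of Fancg likewise lie after an M21 start. The 5 genes with E2F letters were Bard1, Brca2, Chek2, Fancg and Mdc1. Their fold changes took either sign, from -0.64 for Mdc1 to 0.57 for Bard1 on the log2 scale.

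None of the 6 genes of the BRCA1 to BRCA2 axis passed the test, and their log2 fold changes ran from -0.26 to 0.57. Brca1, which encodes the ubiquitin ligase that favours resection, stood at 73.6, 70.4 and 69.5 CPM in the sgKdm6a lines and at 76.6, 103 and 66.2 CPM in the comparison lines. The highest and the lowest value both belonged to comparison lines, and the log2 fold change was -0.20 ± 0.18 (SE, adjusted p = 0.463). Brca2, which acts in strand exchange, stood at 77.2, 60.1 and 66.4 CPM against 76.2, 41.7 and 49.8 CPM, with comparison line 1 inside the range of the sgKdm6a lines (log2 fold change 0.28 ± 0.25, adjusted p = 0.456). Palb2, whose protein joins BRCA1 to BRCA2, stood at 12.6, 16.1 and 13.8 CPM against 20.4, 13.0 and 17.4 CPM (-0.26 ± 0.24, adjusted p = 0.486). The ranges of all 3 genes overlapped. Bard1, the obligate partner of BRCA1, was the only gene of the axis whose lines did not overlap, with 35.9, 27.2 and 27.4 CPM against 19.4, 15.2 and 26.2 CPM. The gap between sgKdm6a line 2B and comparison line 3 was narrow and Bard1 missed the threshold (0.57 ± 0.25, adjusted p = 0.163). Brip1, a helicase bound by BRCA1, and Rbbp8, which encodes the resection factor CtIP, had log2 fold changes of 0.03 and -0.19.

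The 5 genes Rad51b, Rad51c, Rad51d, Xrcc2 and Xrcc3, whose proteins form small complexes that assist strand exchange, had log2 fold changes from -0.49 to 0.51 and none passed the test. Xrcc3 stood at 13.2, 11.98 and 13.4 CPM in the sgKdm6a lines and at 19.1, 15.9 and 18.8 CPM in the comparison lines. These ranges did not overlap, and the unadjusted p of 0.0409 became 0.127 after adjustment (-0.48 ± 0.19). Its partner Rad51c stood at 9.57, 8.05 and 11.4 CPM against 9.01, 14.6 and 5.99 CPM. The comparison lines spanned more than the sgKdm6a lines on either side, and the log2 fold change was -0.03 ± 0.38. Rad51b and Rad51d had the most negative and the most positive values of the 5, -0.49 and 0.51, and Xrcc2 had 0.17. The 3 genes of the RAD52 and RAD54 group, a strand-annealing protein and motor proteins of strand exchange, had log2 fold changes of 0.17 (Rad52), 0.09 (Rad54l) and -0.49 (Rad54b). Rad54b did not overlap between the groups, at 13.6, 17.04 and 12.02 CPM against 22.6, 18.7 and 18.5 CPM, but its adjusted p was 0.164.

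Among the 9 genes that sense breaks or relay the checkpoint signal, only Mdc1 passed the test, and it was lower. Over all genes tested, 7.69% were lower and 6.99% higher at that threshold. Mdc1 encodes the scaffold that binds phosphorylated histone H2AX beside a break and holds ATM and the MRE11 complex there (ENSMUSG00000061607, chromosome 17, 35841515 to 35859670, plus strand, GRCm38). It stood at 116, 130 and 117 CPM in the sgKdm6a lines and at 203, 179 and 184 CPM in the comparison lines. The groups lay far apart relative to their spread, with means of 121 ± 7.69 and 188 ± 13.1 CPM (SD, n = 3 each). The log2 fold change was -0.64 ± 0.11 (SE, adjusted p = 0.0200), a 1.56-fold lower level. Its adjusted p rose to 0.0795 without sgKdm6a line 2A, 0.0673 without 2B, 0.0879 without 2D and 0.0602 without comparison line 3, while the log2 fold change stayed between -0.68 and -0.59 whichever line was left out.

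Atm, the kinase that signals from double-strand breaks, stood at 77.0, 86.3 and 88.0 CPM against 163, 108 and 110 CPM. The lines did not overlap, but comparison line 1 stood apart from the other 2 of its group, and the adjusted p was 0.0765 (-0.60 ± 0.19). Without that line the log2 fold change was -0.39. Nbn, which encodes the targeting subunit of the MRE11 complex, had the opposite sign, at 46.3, 53.4 and 56.1 CPM against 35.4, 29.7 and 37.5 CPM, without overlap (0.60 ± 0.16, adjusted p = 0.0512). The other subunits of that complex overlapped between the groups, with log2 fold changes of 0.17 for Mre11a and -0.06 for Rad50. DESeq2 called Atm (adjusted p = 0.0276) and Nbn (adjusted p = 0.0196), which the edgeR test did not. Each of these genes passed in 1 of the 8 alternative fits that kept every line and in 0 of the 6 that left out a line.

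The replication checkpoint kinases overlapped between the groups and did not pass the test, which does not show that their levels were equal. Atr stood at 69.6, 80.9 and 74.8 CPM in the sgKdm6a lines and 75.2, 57.3 and 76.4 CPM in the comparison lines (0.11 ± 0.15, adjusted p = 0.649). With an offset for transcript length, described below, Atr was at 0.49 (adjusted p = 0.0781). Its effector Chek1 stood at 35.7, 42.1 and 42.5 CPM against 48.0, 24.8 and 39.4 CPM (0.10 ± 0.26, adjusted p = 0.805). Chek2, the effector of ATM, stood at 32.1, 30.2 and 30.5 CPM against 44.6, 23.2 and 24.4 CPM (0.01 ± 0.28, adjusted p = 0.984). For the 2 effector kinases the comparison lines enclosed the sgKdm6a lines, with line 1 highest and line 2 lowest. Trp53bp1, whose protein limits resection, stood at 84.8, 76.2 and 77.9 CPM against 83.1, 165 and 101 CPM. Its log2 fold change of -0.55 (adjusted p = 0.185) rested on comparison line 2 and was -0.21 without that line.

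**Figure D2:**
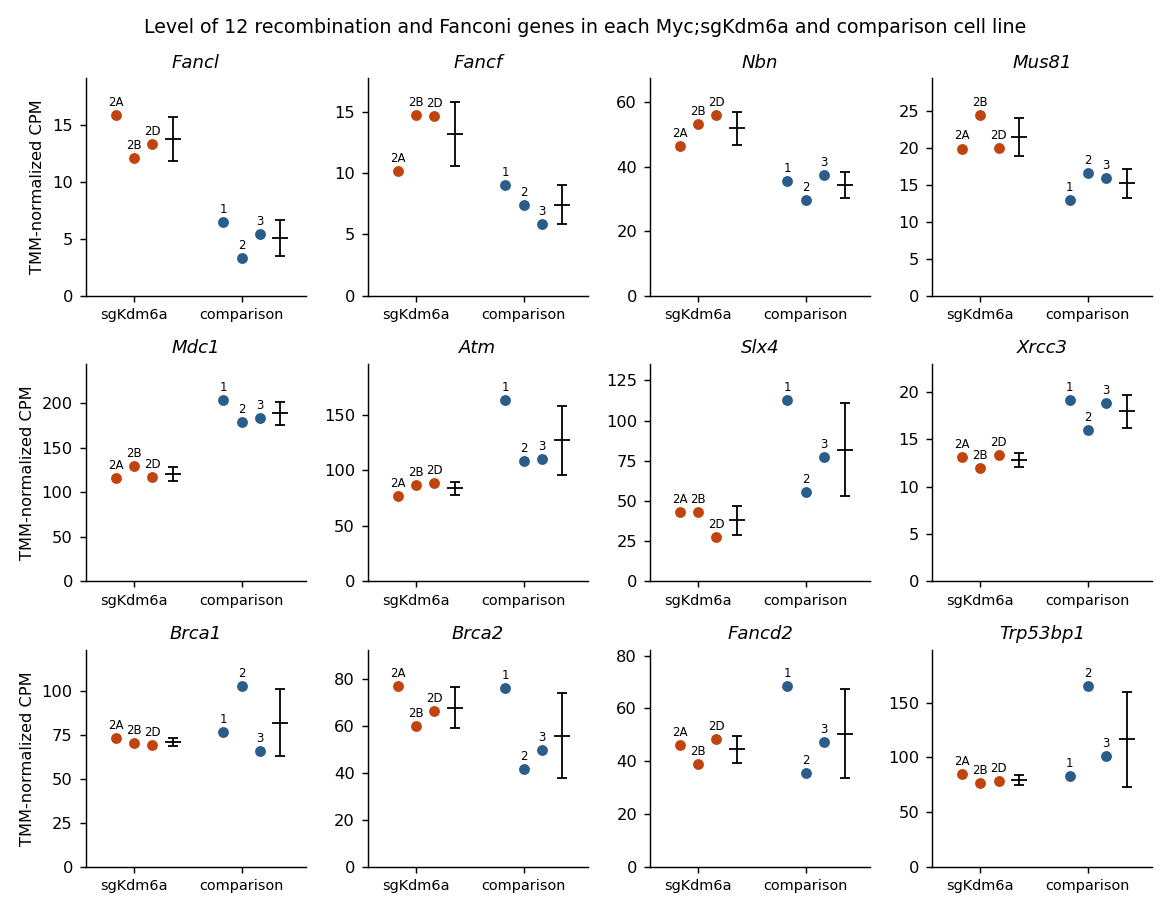
Level in TMM-normalized CPM (vertical axes, each from 0) of 12 genes in each line (points, labelled with the replicate), beside the mean and SD of each group (bars, n = 3 lines). Mdc1, Atm, Slx4 and Xrcc3 are lower without overlap and Fancl, Fancf, Nbn and Mus81 higher without overlap in the sgKdm6a lines, whereas Brca1, Brca2, Fancd2 and Trp53bp1 overlap.

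The Fanconi core complex, a ubiquitin ligase of many subunits, contained the largest change of the 38 genes. Fancl (ENSMUSG00000004018, chromosome 11, 26386135 to 26471876, plus strand, GRCm38) encodes its catalytic subunit, which attaches ubiquitin to FANCD2 and FANCI. It stood at 15.95, 12.2 and 13.4 CPM in the sgKdm6a lines and at 6.48, 3.34 and 5.42 CPM in the comparison lines. These levels rest on 80, 65 and 60 reads against 41, 18 and 38 reads, and every sgKdm6a line lay above every comparison line. The means were 13.8 ± 1.94 and 5.08 ± 1.599 CPM (SD, n = 3 each), and the log2 fold change was 1.44 ± 0.32 (SE, adjusted p = 0.0349), a 2.71-fold higher level. The adjusted p was 0.105 without sgKdm6a line 2A, 0.0882 without 2B, 0.106 without 2D and 0.0966 without comparison line 3. Fancl shares exon sequence with Vrk2 on the opposite strand, and whether the counting used the strand is not given in the sources used here. Vrk2 stood at 15.95, 12.6 and 16.5 CPM against 8.06, 7.79 and 9.41 CPM (0.83, adjusted p = 0.0563), so reads of the 2 genes may not have been separated.

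Of the other 7 core complex genes, 6 had a log2 fold change above 0 and none passed the test. Over all genes tested, 50.8% were below 0. The signs of Fancm, Fancc and Fancg are not firm, as each changed in at least 1 fit that left out a line. Fancf, an adaptor subunit with a single exon, stood at 10.2, 14.8 and 14.7 CPM against 9.01, 7.41 and 5.85 CPM, without overlap (0.83 ± 0.28, adjusted p = 0.0942). It shares exon sequence with Gas2 on the opposite strand, which overlapped between the groups (-0.12). Fancb, whose protein forms the catalytic module together with FANCL and FAAP100, stood at 21.1, 21.5 and 22.9 CPM against 18.8, 10.6 and 15.3 CPM, also without overlap (0.55 ± 0.25, adjusted p = 0.169). Fanca, in contrast, stood at 37.9, 39.7 and 38.5 CPM against 42.0, 37.8 and 41.6 CPM (-0.07 ± 0.13, adjusted p = 0.743). Fancm, the translocase that brings the complex to DNA, stood at 34.5, 35.2 and 39.4 CPM against 35.2, 39.3 and 34.1 CPM (0.01 ± 0.14, adjusted p = 0.978). These 2 genes differed by less than the spread between lines, with 95% intervals of -0.37 to 0.24 and -0.34 to 0.35. The other 3 core genes had log2 fold changes of 0.07 (Fancc), 0.12 (Fancg) and 0.34 (Fance).

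Fancd2 and Fanci, the substrate pair of the core complex, overlapped between the groups. Fancd2 stood at 46.3, 38.8 and 48.6 CPM against 68.6, 35.6 and 47.2 CPM, with the highest and the lowest line both in the comparison group (-0.18 ± 0.26, adjusted p = 0.649). Fanci stood at 27.3 to 35.7 CPM against 24.1 to 32.1 CPM (0.13 ± 0.18, adjusted p = 0.638). In CPM per kilobase, Fancl stood at 0.931 ± 0.151 of Fanca in the sgKdm6a lines and at 0.323 ± 0.0867 in the comparison lines (SD, n = 3 each, a pair chosen after its values were seen).

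The nuclease scaffold Slx4 had the largest difference in the other direction but missed the threshold. It stood at 43.1, 43.1 and 27.4 CPM in the sgKdm6a lines and 113, 55.4 and 77.4 CPM in the comparison lines. The lines did not overlap, but they varied within each group, and the log2 fold change was -1.11 ± 0.31 (adjusted p = 0.0579), with a 95% interval from -1.86 to -0.37. DESeq2 gave it an adjusted p of 0.00726, and edgeR gave 0.0339 once comparison line 2 was left out. These were its only passes. Slx4 passed in 1 of the 8 alternative fits that kept every line. It passed in 1 of the 6 that left out a line, with adjusted p up to 0.161. The SLX4 protein docks the nuclease MUS81-EME1, which cuts recombination intermediates. Mus81 stood at 19.9, 24.5 and 20.04 CPM against 13.0, 16.7 and 15.97 CPM (0.50 ± 0.20, adjusted p = 0.132), and Eme1 at 15.8, 15.9 and 20.7 CPM against 25.4, 23.4 and 21.8 CPM (-0.43 ± 0.19, adjusted p = 0.164). Neither pair of ranges overlapped, and the subunits of this heterodimer had opposite signs. In CPM per kilobase, Mus81 stood at 0.974 ± 0.222 of Eme1 in the sgKdm6a lines and 0.505 ± 0.0958 in the comparison lines (SD, n = 3 each, chosen after its values were seen). Both genes share exon sequence with genes on the opposite strand, Mus81 with Efemp2 (-0.17) and Eme1 with Lrrc59 (0.36) and Mrpl27 (0.50), none of which passed the test. The helicase gene Blm and the exonuclease gene Exo1 had log2 fold changes of 0.23 and 0.16 and overlapped between the groups.

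**Figure D3:**
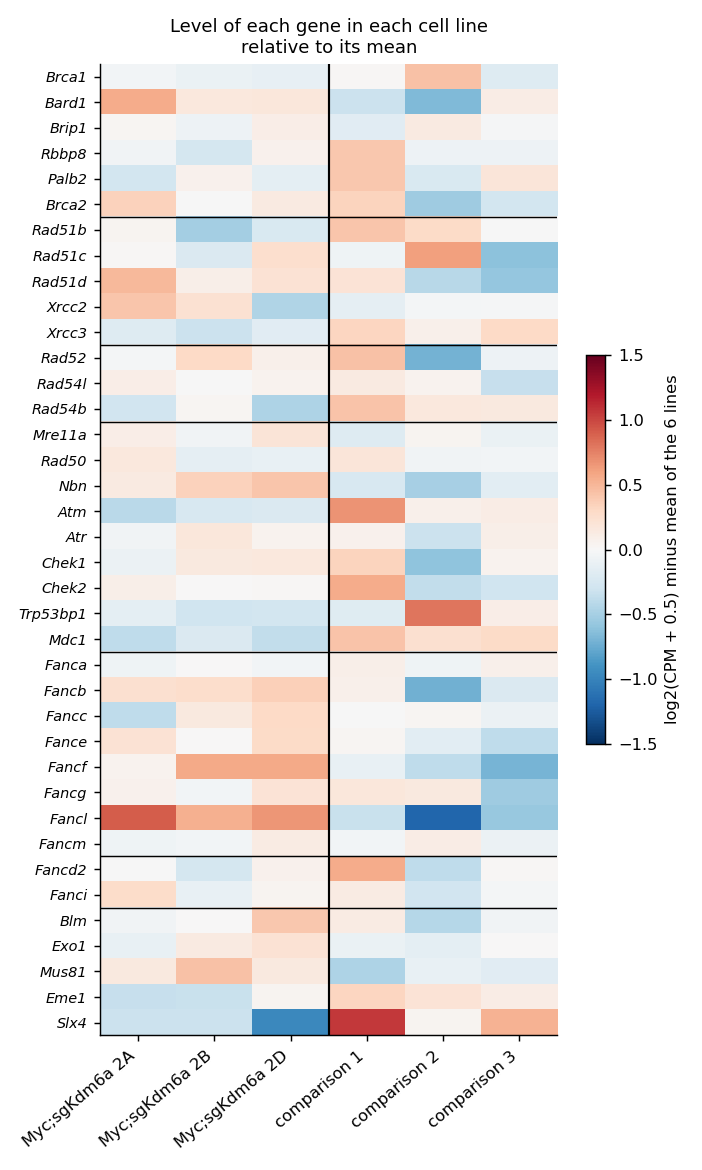
Level of each of the 38 genes (vertical, lines between roles) in each cell line (horizontal), as log2(CPM + 0.5) minus the mean of the 6 lines (colour). The comparison lines on the right differ more from each other than the sgKdm6a lines on the left, and line 1 of that group is the darkest red for many genes.

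The lines of the comparison group differed more among themselves. The median SD over the 38 genes, on the log2(CPM + 0.5) scale, was 0.167 in the sgKdm6a lines and 0.268 in the comparison lines. Over all genes tested it was 0.196 and 0.274. The SD was larger in the comparison lines for 29 of the 38 genes, or 76.3%, and for 63.9% of all genes tested. The comparison line 1 was the highest of its group for 25 of the 38 genes, or 65.8%, whereas it was the highest for 34.5% of all genes. Line 2 was the lowest for 21, or 55.3%, against 37.2% of all genes. Summed over the 38 genes, line 1 reached 1895 CPM, and the other 5 lines reached 1567 to 1628 CPM. Line 1 was also the line with the lowest sum of fibroblast and stellate cell markers. The part of these markers in the repair genes was not tested. Without line 1, Fancl and Mdc1 still passed the test (adjusted p = 0.0487 and 0.0411).

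Per length of transcript, the same 5 genes had the highest mean levels in either group, and 4 of them sense or signal breaks, but their order differed. In the sgKdm6a lines Nbn led with a mean of 20.5 CPM per kilobase, followed by Rbbp8 (17.4), Rad50 (17.3), Mre11a (17.05) and Mdc1 (16.3). In the comparison lines Mdc1 led with 25.4 CPM per kilobase, followed by Rbbp8 (19.9), Rad50 (17.9), Mre11a (15.2) and Nbn (13.5). Next came Fance (10.45) and Chek2 (10.3) in the former and Atm (12.3) and Slx4 (10.7) in the latter. The lowest 4 means in the sgKdm6a lines were those of Rad51b (1.49 CPM per kilobase), Palb2 (1.93), Rad51c (2.20) and Fancc (2.34). Fancl was the lowest in the comparison lines at 1.51 CPM per kilobase, below Rad51b (2.105), Fancc (2.22), Rad51c (2.25) and Palb2 (2.30), whereas it stood at 4.10 in the sgKdm6a lines, in 29th place. Of the 37 neighbouring pairs in each order, 36 had overlapping ranges over the lines of the group. The order also depended on the length used. With the longest coding transcript in place of the length in the table, Atr moved from 33rd to 15th place in the sgKdm6a lines and from 32nd to 19th in the comparison lines, and Nbn moved from 5th to 7th in the latter.

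Genes of the same pathways that are not among the 38 gave a comparison. Over all genes tested, 6.99% were higher and 7.69% lower at the adjusted p. Among 18 other Fanconi and crosslink repair genes, 3 rose and 1 fell. Faap24, whose protein binds FANCM, stood at 28.1, 30.0 and 41.6 CPM against 16.9, 7.23 and 12.8 CPM (1.43 ± 0.34, adjusted p = 0.0425). Faap100, the third protein of the catalytic module, stood at 28.3, 27.5 and 27.2 CPM against 17.4, 17.8 and 18.5 CPM (0.63 ± 0.15, adjusted p = 0.0413). Usp1, the enzyme that removes ubiquitin from FANCD2, stood at 199, 207 and 192 CPM against 157, 131 and 144 CPM (0.47 ± 0.11, adjusted p = 0.0392). The nuclease gene Fan1 fell, at 5.58, 2.996 and 2.90 CPM against 11.5, 8.16 and 12.3 CPM (-1.47 ± 0.37, adjusted p = 0.0464). The groups did not overlap for any of these 4 genes. Over the fits that left out 1 line, the adjusted p ran from 0.0397 to 0.130 for Faap24, 0.0541 to 0.119 for Faap100, 0.0485 to 0.114 for Usp1 and 0.0488 to 0.147 for Fan1.

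Among 31 other recombination genes tested, Nsmce1 rose (0.81 ± 0.16, adjusted p = 0.0283) and Smc5 fell (-0.49 ± 0.12, adjusted p = 0.0487). They encode subunits of the same SMC5/6 complex. Of 24 other break signalling and checkpoint genes tested, 1 rose, the replication fork protein gene Tipin (0.82 ± 0.13, adjusted p = 0.0188), and none fell. At an unadjusted p under 0.05, 5 of these 24 were higher and 2 lower, and DESeq2 called 2 in each direction. Over all genes tested, 16.6% were higher and 18.3% lower at the unadjusted p. Of 15 end joining genes, none rose and Dclre1c, which encodes the nuclease Artemis, fell (-0.86 ± 0.22, adjusted p = 0.0480). At an unadjusted p under 0.05, 2 of these 15 were higher and 1 was lower, and DESeq2 called none higher. Over the fits that left out 1 line, the adjusted p ran from 0.0194 to 0.0911 for Nsmce1 and 0.0633 to 0.154 for Smc5. It ran from 0.0241 to 0.0757 for Tipin and 0.0735 to 0.145 for Dclre1c. The median log2 fold changes of these lists were 0.03 for the Fanconi and crosslink genes, 0.21 for the recombination genes, 0.20 for the signalling genes and 0.17 for the end joining genes, beside 0.08 for the 38 genes.

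Of 30 proliferation genes, 7 rose and none fell, with a median of 0.27. Over all genes tested, 6.99% were higher and 7.69% lower. With 1 line left out, 0 to 8 of the 30 were higher, beside 3 to 836 of all genes, with the fewest without sgKdm6a line 2A. No proliferation gene was lower at an unadjusted p under 0.05, nor with DESeq2, which called 12 of them higher. Over all genes DESeq2 called 1268 higher and 1514 lower. Rrm2 and Rrm1, the subunits of the enzyme that makes deoxyribonucleotides, rose by 1.19 ± 0.11 (adjusted p = 0.0103) and 0.70 ± 0.10 (adjusted p = 0.0171). Ccne1, which encodes cyclin E1, rose by 1.65 ± 0.33 (adjusted p = 0.0276). Plk1, a mitotic kinase, rose by 0.78 ± 0.12 (adjusted p = 0.0171), and Mcm5, a subunit of the replicative helicase, by 0.62 ± 0.12 (adjusted p = 0.0274). Of the 6 fits that left out 1 line, Rrm2 passed in 5, Rrm1 and Ccne1 in 3 each, Plk1 in 2 and Mcm5 in 1. Mki67 stood at 732 to 872 CPM against 445 to 649 CPM (0.55 ± 0.16, adjusted p = 0.0662). The summed level of the 30 proliferation genes was 6864 to 7784 CPM in the sgKdm6a lines and 5659 to 5863 CPM in the comparison lines, without overlap. The summed level of the 38 repair genes was 1567 to 1628 CPM against 1615 to 1895 CPM, with overlap. The part of cell division in the single repair genes was not tested.

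**Figure D4:**
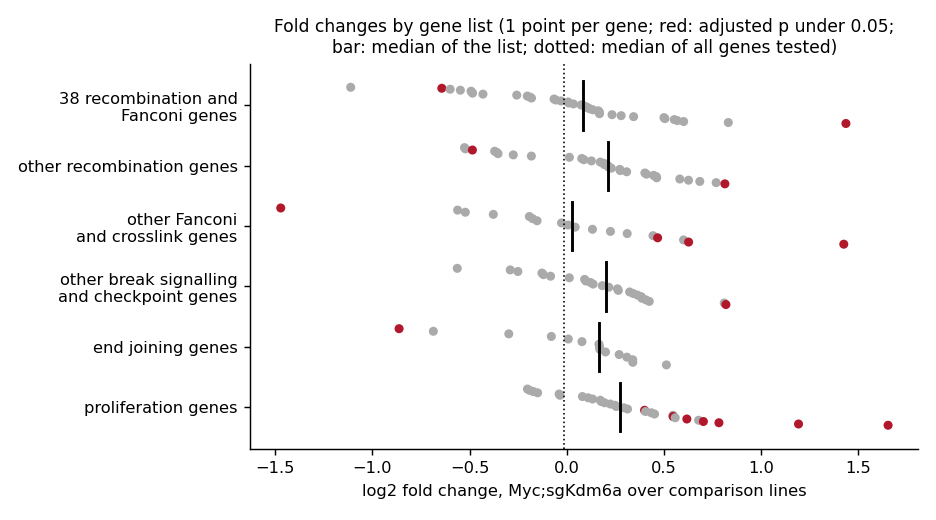
Log2 fold change (horizontal, sgKdm6a over comparison lines) of every tested gene in 6 lists, 1 point per gene, red for an adjusted p under 0.05; the bar is the median of a list and the dotted line the median of all genes tested. The 38 genes centre at 0.08 with 2 red points, and the proliferation genes centre at 0.27 with 7 red points, all to the right.

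Transcript length moved with the fold changes. Across all 11510 genes, Spearman's rho between the transcript length in the table and the log2 fold change was -0.25, and across the 38 genes it was -0.34. These are correlations across genes of the same 6 libraries, and genes are not independent replicates. When the genes tested were divided by length into 4 classes of equal size, their median fold change on the log2 scale was 0.23 for the shortest, 0.06 and -0.07 for the next classes and -0.23 for the longest. By this length the 38 genes were longer than most, with a median of 5763 bases against 4441 bases, and 16 of them belonged to the longest class. The length in the table equals the union of a gene's GENCODE M21 exons for 95.6% of genes, so it can exceed any single transcript. The median of the longest coding transcripts of the 38 was 3773.5 bases, a measure not given here for all genes. Mdc1, Slx4, Atm and Trp53bp1 were all in that class, and Fancf, Nbn, Xrcc3 and Eme1 were the 4 in the shortest.

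With an offset for length in each line, rho was -0.01 for all genes and -0.06 for the 38 genes. The offset is fitted to this length in the same counts, so a value near 0 over all genes follows from its construction. The median of the 38 rose to 0.22, and 12 rather than 15 of them were below 0. Fancl changed little, to 1.40 (adjusted p = 0.0420), and Mdc1 shrank to -0.48 (adjusted p = 0.0430). With an offset for length and GC content, Mdc1 was at -0.45 and no longer passed (adjusted p = 0.0520), and with the length of the longest coding transcript it was at -0.31 (adjusted p = 0.121). Atm moved from -0.60 to -0.36, Slx4 from -1.11 to -0.94 and Trp53bp1 from -0.55 to -0.24 under the length offset. Atr and Brca2, very long by the length in the table, also moved up, from 0.11 to 0.49 and from 0.28 to 0.58. Both thus moved farther from 0 (adjusted p = 0.0781 and 0.175). The longest coding transcript of Atr was 8102 bases, against 23629 bases in the table. Brca1 came to 0.00 and Fancd2 to 0.01. Of the genes outside the 38, Faap24, Fan1, Nsmce1, Smc5 and Dclre1c no longer passed under the length offset, and Faap100, Usp1, Tipin, Rrm1, Rrm2, Ccne1, Plk1 and Mcm5 did. The difference for Mdc1 depended on how length was treated, and that for Fancl passed with each of these offsets. Fancl, at 3372 bases in the table, lay in the class from 2766 to 4441 bases, whose median was 0.06. The length offset could thus move Fancl little, and these fits do not show which difference is firmer. With 1 line left out, each passed in 2 of 6 fits.

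**Figure D5:**
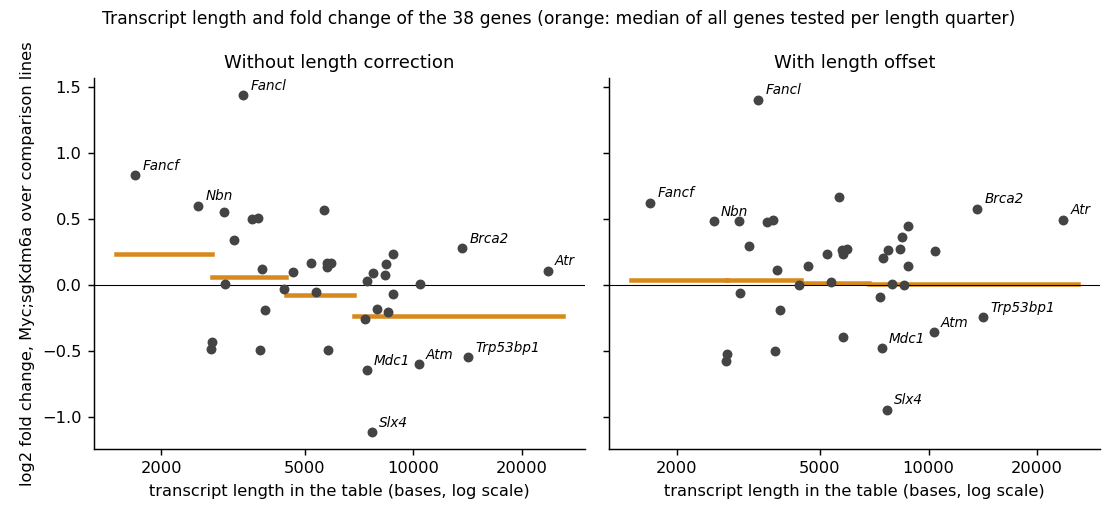
Transcript length in bases (horizontal, log scale) against log2 fold change (vertical) of the 38 genes (points) without a length correction (left) and with a length offset (right); the orange bars are the medians of all genes tested in each of 4 classes of length. On the left the bars step down from 0.23 to -0.23. On the right they lie between 0.01 and 0.04, as the offset was fitted to remove this trend. Fancl stays at the top of either panel.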

How the data were processed

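RNA from 3 Myc;sgKdm6a and 3 comparison cell lines was measured. The authors deposited unnormalized read counts for each Ensembl gene, beside its transcript length. The submitters' processing notes name Trimmomatic 0.36, STAR 2.5.3a, featureCounts 1.6.3, DESeq2 1.20.0 and GRCm38/mm10, whereas the study's methods name HTSeq and a human build. Coordinates equal GENCODE M21 for 96.1% of genes (36 of the 38 members), and the length equals the union of M21 exons for 95.6%. Strandedness of the counting is not given in the sources used here, and 19 members share exon sequence with a gene on the opposite strand and 2 with one on the same strand.

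Groups are the genotypes that the labels give. In R 4.3.3, edgeR 4.0.16 was run with filterByExpr (minimum count 10), TMM normalization and the quasi-likelihood F test, with Benjamini-Hochberg adjustment over 11510 genes. The biological coefficient of variation was 33.4%. Levels are TMM-normalized CPM, SE and 95% intervals come from the F test, and SDs on the log2 scale use a pseudocount of 0.5. Depth was 4656103 to 6937497 reads per line, and the lowest count of a member in a line was 18, for Fancl. The procedure was checked on simulated data.

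Alternatives were no filter, at least 10 counts in every line, DESeq2 size factors, total counts only, DESeq2 1.42.0, offsets per line for length or for length with GC content (natural splines of 5 degrees of freedom in a robust regression, MASS 7.3.60.0.1), and leaving out each line. Offsets by the longest coding transcript were chosen after seeing the data. The members and gene lists were chosen with earlier results of these data known. Values in every line are given for members with an unadjusted p under 0.05, for 11 genes central to the pathway, and for others where lines did not overlap or 1 line decided the value, the last chosen after their values were seen. From the comparison lists, up to 5 genes past the adjusted p are named. Some genes and an allele are not reported here, and the gene lists leave them out. Promoters are those of RefSeq.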

Additional observations from a re-analysis of the deposited data

How the results depend on the processing

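No paired analysis was possible because the groups share no replicate number (2A, 2B and 2D against 1, 2 and 3). Over the 14 alternatives to each of the 38 fold changes, 472 of 532 fits kept the direction and the side of the threshold, 10 no longer passed, 4 newly passed and 46 changed sign. Fancl passed in all 8 fits that kept every line, and Mdc1 in 6 of them. The sign changes concern genes whose log2 fold change lay within 0.3 of 0. For the named genes outside the 38, 101 of 238 fits no longer passed. Depth limits the genes with few reads, such as Rad51b with 230 and Fancl with 302 over the 6 lines. The causes of the shifts below were not tested. Counts that stayed equal or close to those of the main fit are mostly not printed. The counts below at the unadjusted p and without overlap stand without the share over all genes, which is given for the main fit only. With 1 line left out, any gene is more easily without overlap. These counts are therefore not read as a result about the 38 genes.

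Leaving out each line in turn gave 0 to 1 higher and 0 to 2 lower among the 38 at the adjusted p, 2 to 6 higher and 2 to 4 lower at the unadjusted p, 6 to 12 higher and 6 to 9 lower without overlap, and a median of -0.0064 to 0.12, the lowest without comparison line 3. Over all genes these fits gave 3 to 836 higher and 1 to 1118 lower, with the fewest without sgKdm6a line 2A. They gave 0 to 1 higher and 0 lower for the other recombination genes, 0 to 2 higher and 0 to 1 lower for the other Fanconi and crosslink genes and for the other break signalling genes, 0 in either direction for the end joining genes and 0 to 8 higher for the proliferation genes. Genes that changed sign in such a fit ranged from -0.012 to 0.18 (Atr), -0.044 to 0.11 (Brip1), -0.12 to 0.31 (Chek1), -0.15 to 0.37 (Chek2), -0.054 to 0.27 (Fancc), -0.38 to 0.096 (Fancd2), -0.089 to 0.23 (Fancg), -0.0395 to 0.071 (Fancm), -0.14 to 0.021 (Rad50), -0.29 to 0.37 (Rad51c), -0.079 to 0.49 (Rad52) and -0.049 to 0.18 (Rad54l).

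DESeq2 called 2 of the 38 higher (Fancl and Nbn) and 3 lower (Mdc1, Slx4 and Atm). Over all genes it called 1268 higher and 1514 lower. It called 2 of the other recombination genes higher and 1 lower, and 4 of the other Fanconi and crosslink genes higher and 3 lower. Of the other break signalling genes it called 2 in each direction, and of the proliferation genes 12 higher. Chek2 was at -0.0091 and Fancm at -0.0116. With DESeq2 size factors in edgeR, 3 other Fanconi genes were higher and 2 lower, Chek2 was at -0.0089 and Fancm at -0.012.

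Without a filter, 1 of the other recombination genes was higher and 0 lower, and 1 of the other Fanconi genes was higher and 0 lower. In that fit 0 end joining genes were lower, and Rad51c was at 0.0023. With at least 10 counts in every line, 2 other Fanconi genes were higher and 3 lower, Brip1 was at -0.0087, Chek2 at -0.034 and Fancm at -0.037. With total counts, 7 of the 38 were lower at the unadjusted p, 0 of the other Fanconi genes were higher and 3 lower, Brip1 was at -0.030, Chek2 at -0.061 and Fancm at -0.059.

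The length offset gave 10 of the 38 higher without overlap and a median of 0.22. It gave 0 other recombination genes in either direction, 3 other Fanconi genes higher and 0 lower, and 0 end joining genes lower. It put Rad51c at 0.00065, Rad50 at 0.024, Chek2 at -0.058, Fanca at 0.14 and Fancd2 at 0.0052. The length and GC offset gave 0 of the 38 lower at the adjusted p, 10 higher without overlap, a median of 0.21 and 584 genes lower over all genes. It gave the same 0 counts in the other lists, and 2 other Fanconi genes higher. Brca1 was at 0.013, Rad50 at 0.016, Chek2 at -0.053, Fanca at 0.18 and Fancd2 at 0.0205. The offset by the longest coding transcript gave 0 of the 38 lower at the adjusted p, 8 higher at the unadjusted p and 12 higher without overlap. It gave 541 genes lower over all genes and 0 other recombination genes in either direction. It gave 3 other Fanconi genes higher and 0 lower, 1 other break signalling gene higher and 1 lower, and 0 end joining genes lower. Brca1 was at 0.093, Rad51c at 0.052, Rad52 at -0.00047, Rad50 at 0.14, Chek2 at -0.052, Fanca at 0.071 and Fancd2 at 0.0499.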
